A study of Mus musculus with 7 samples.

Results

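The 9 genes described here carry, convert or take up vitamin A derivatives, and they were followed in the developing mouse retina through H3K18La, lactylation of lysine 18 on histone H3. They were Rbp3, Rdh12, Rdh8, Abca4, Rpe65, Lrat, Rdh5, Stra6 and Dhrs3, and all peaks that the authors annotated to one of these symbols were taken. This gave 71 of 108253 peaks, and 8 of the 9 genes had at least 1 peak. By the cells known to use them, Rbp3, Rdh12, Rdh8 and Abca4 were grouped as photoreceptor genes (36 peaks) and Rpe65, Lrat, Rdh5 and Stra6 as pigment epithelium genes (24 peaks). Dhrs3 (11 peaks), which is used by cones and many other cells, was placed in neither group.

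Light detection consumes the retinal chromophore of the visual pigments, and the visual cycle rebuilds it. In photoreceptors the spent retinal is cleared from the disc membranes and reduced to retinol, which crosses the matrix to the retinal pigment epithelium, where it is esterified, isomerised, oxidised and sent back. The pigment epithelium also takes up fresh retinol from the blood, and it is a separate cell layer that is usually left behind when the neural retina is dissected.

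H3K18La was mapped by CUT&Tag, in which an antibody guides an enzyme that releases or tags the DNA next to the histone mark, in retinas of C57Bl/6J mice with no other allele or treatment named. Cells were dissociated with papain at postnatal day 4 (P4, n = 2 libraries), P10 (n = 2) and P28 (n = 3). The study asked whether histone lactylation is tied to the retina maturing in function. The design text calls the libraries biologically replicated, but how many animals gave each one is not given in the sources used here, so p-values measure the spread between these libraries. All retinal cell types were mixed, and fewer cells of a type cannot be told apart from less signal per cell.

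The libraries differed in depth and in signal share with age. The whole reads recovered from the deposited values summed to 199970 to 8274373 in peaks, and the reads in peaks were 16.3% and 17.6% of the authors' normalized library size at P4, 36.1% and 52.1% at P10, and 42.4% to 57.1% at P28. P28 replicate 1 is the only library that the labels place in batch 2. Over all genes with a peak the median log2 change from P4 to P28 was 0.76, so that a rise of that size was shared by the typical gene. Between P4 and P28, 33.7% of all genes were called higher and 7.07% lower, for comparison with the marker counts that follow. Of 8 photoreceptor markers 7 had a peak, and all 7 were called higher at P28 than at P4. Their summed level was 15.2 and 18.5 RPKM (reads per kilobase of peak, scaled to library size) at P4, 133 to 138 at P10 and 99.4 to 134 at P28. Of 8 pigment cell markers 6 had a peak (Pmel and Mlana had none), none was called higher and Tyr was called lower. Their summed level was 11.5 to 13.5 RPKM at P4, 8.06 to 13.6 at P10 and 7.11 to 13.3 at P28, and Tyr and Slc45a2 had 0 reads in both P10 libraries. The Tyr call rests on 6 and 3 reads at P4 and on 1, 4 and 2 at P28. Of 4 Mueller glia markers 2 were called higher, and they summed to 7.70 and 7.72 RPKM at P4, 9.18 and 18.1 at P10 and 20.8 to 25.8 at P28. Of 4 endothelial markers 1 (Tek, at 3 reads or fewer) was called lower, Cdh5 and Tek had 0 reads in some libraries, and they summed to 9.16 and 12.3 RPKM at P4, 3.11 and 9.84 at P10 and 4.48 to 6.46 at P28. Of 3 microglial markers with a peak (Tmem119 had none) 1 was called higher, P2ry12 had 0 reads in 1 library, and they summed to 3.398 and 3.67 RPKM at P4, 3.71 and 4.96 at P10 and 5.54 to 7.03 at P28. The part of the signal share and of these cell types in the results was not tested.

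With the reads of all peaks of a gene pooled, Rbp3, Rdh12, Rdh8, Abca4, Dhrs3 and Stra6 were higher at P28 than at P4, by 1.40 to 2.36 on the log2(RPKM + 1) scale. Rdh5 was not called, Lrat had no peak to measure, and Rpe65 was called lower on a total of 3 reads. Calls were made at an adjusted p under 0.01 with limma over all 25400 genes. The 6 called higher among the 8 measured genes compare with 33.7% of all genes called higher, and the 1 called lower with 7.07%. The median change was 1.74 over the 8 genes and 0.76 over all genes. In 6 of the 8 genes every P28 library lay above every P4 library, which also held for 58.7% of all genes. When each library was scaled to its reads in peaks, the median of all genes moved to -0.28, and only Rbp3, Rdh12 and Dhrs3 were still called higher, beside 11.2% of all genes higher and 24.9% lower. No sign changed among the 6 in that setting, and Abca4 (adjusted p = 0.0308), Rdh8 (0.0275) and Stra6 (0.256) lost the call. Over all their alternatives the adjusted p reached 0.0308 for Abca4, 0.137 for Rdh8 and 0.256 for Stra6.

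**Figure D1:**
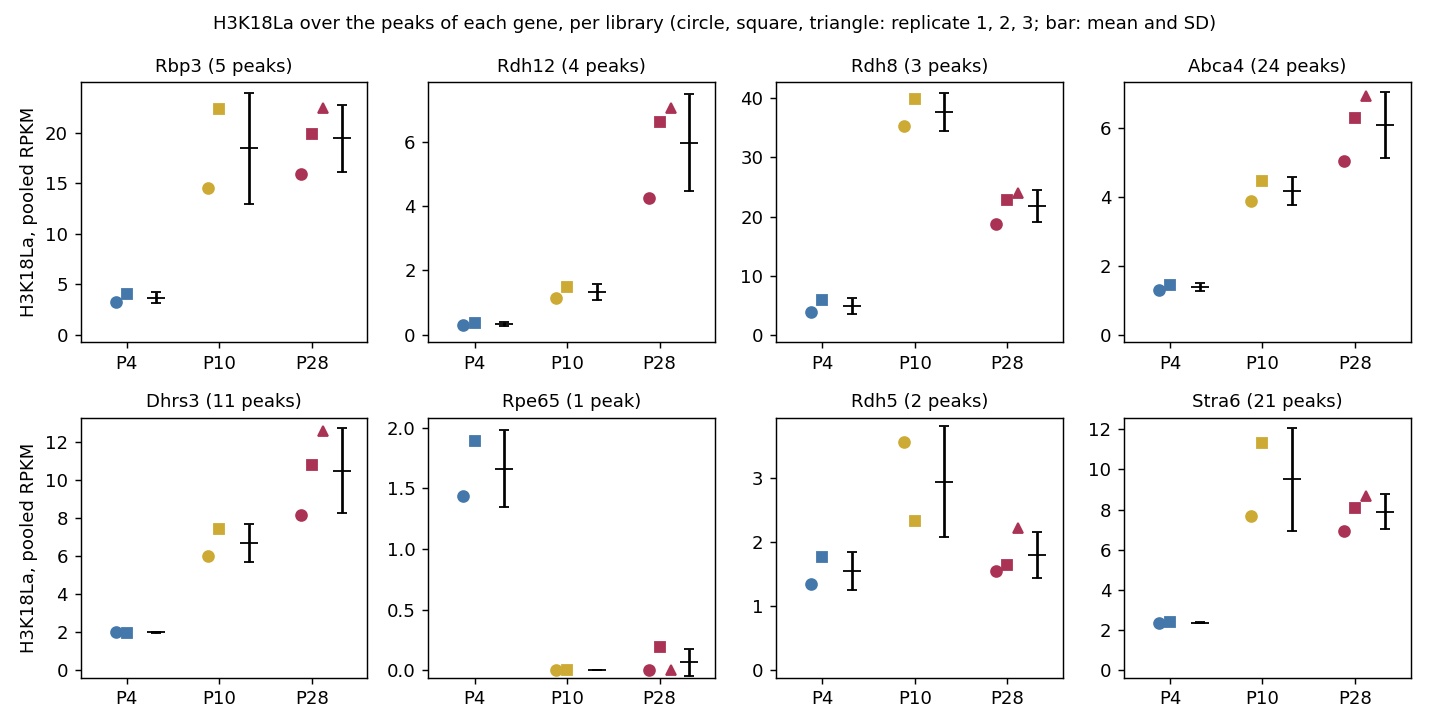
Pooled H3K18La level (RPKM, vertical axis from 0, a separate scale for each gene) at P4, P10 and P28 (horizontal axis), with 1 symbol per library and the mean ± SD beside each age. Rbp3, Rdh12, Rdh8, Abca4, Dhrs3 and Stra6 have every P28 library above every P4 library, Rdh8 is highest at P10, and Rdh5 and Rpe65 stay under 4 RPKM.

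At the level of single peaks 25 of the 71 were higher at P28 than at P4, beside 18.9% of all 108253 peaks, and 1 was lower, beside 4.21%. The median change over the 71 peaks was 1.03 and over all peaks 0.68, but with libraries scaled to reads in peaks these were -0.07 and -0.30, and under quantile normalization 0.33 and 0.09. Of the 36 photoreceptor gene peaks 15 were higher, of the 24 pigment epithelium gene peaks 5, all in Stra6, and of the 11 Dhrs3 peaks 5. By position, 6 of 13 promoter peaks, 9 of 29 intron peaks, 5 of 14 exon peaks and 3 of 10 distal peaks rose, as did 1 of 4 peaks in a 3′ UTR and the 1 in a 5′ UTR, while over all peaks the shares called higher were 31.3% in promoters, 19.5% in introns, 18.96% in exons, 11.8% in distal regions, 21.7% in 3′ UTRs and 25.4% in 5′ UTRs. Without P4 replicate 1 the count of called peaks fell from 26 to 12, without P4 replicate 2 to 11, without P28 replicate 2 to 15 and without P28 replicate 3 to 16. Over all peaks the share called fell as well, from 23.1% to 7.18%, 7.66%, 10.6% and 10.5% in the same order. With each library left out in turn, 9 of the 26 kept their call every time: the Rpe65 peak, 3 Dhrs3 peaks, 2 Abca4 peaks and 1 peak each of Rbp3, Rdh8 and Stra6. Of these, the Dhrs3 peak in the 5′ UTR lost its call under other settings. The Rpe65 peak held at most 1 read in any library, so its kept call is not read as a fall. With libraries scaled to reads in peaks 13 peaks were higher and 2 lower, beside 7.08% and 14.5% of all peaks, and over all peaks the share of calls that were higher went from 81.8% to 32.7%.

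**Figure D2:**
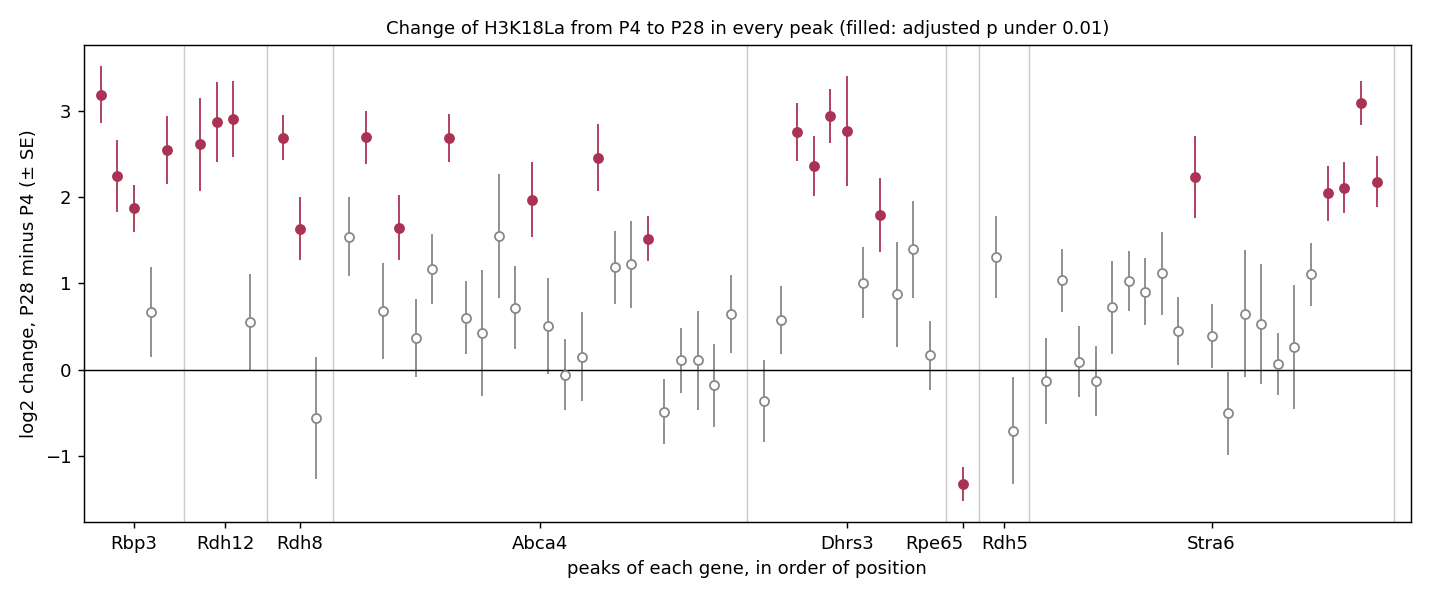
Log2 change from P4 to P28 (vertical axis, ± SE, on log2(RPKM + 1)) of each of the 71 peaks, ordered along each gene (horizontal axis), with filled points for peaks called at an adjusted p under 0.01. The called peaks of Stra6 sit at its end apart from 1, those of Abca4 are spread from its start over the first 19 peaks, and the single Rpe65 peak is the only one called lower.

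Rbp3 encodes the retinoid-binding protein of the interphotoreceptor matrix, which photoreceptors secrete and which carries retinoids between them and the pigment epithelium. The gene lies at chr14:33954003-33964219 of GRCm38. Its 5 pooled peaks measured 3.26 and 4.06 RPKM at P4, 14.6 and 22.3 at P10, and 15.9, 19.9 and 22.5 at P28. Both later ages lay above P4 in every library and overlapped each other. The mean rose 5.31-fold from 3.66 ± 0.570 (SD, n = 2) at P4 to 19.4 ± 3.29 (SD, n = 3) at P28, a log2 change of 2.12 ± 0.26 (SE, adjusted p = 0.000246). From P4 to P10 the change was already 2.04 ± 0.28 (adjusted p = 0.00104), and from P10 to P28 it was 0.09 ± 0.26 (adjusted p = 0.823).

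Within Rbp3 the largest fitted change was not at the start but in a peak 3.4 kb before it, at chr14:33949701-33950651. That peak had 1.91 and 3.14 RPKM at P4, 15.2 and 22.4 at P10, and 22.6, 32.0 and 39.6 at P28, with no overlap between P4 and the later ages. Its log2 change from P4 to P28 was 3.19 ± 0.33 (adjusted p = 0.000182). The broad peak over the start (chr14:33953405-33956457) went from 3.57 and 4.89 RPKM at P4 to 17.1 and 22.7 at P10 and 16.3, 17.7 and 20.03 at P28, a change of 1.87 ± 0.27 (adjusted p = 0.000783). Whether the distal peak gained more than the one at the start was not tested. The peak 1.0 kb before the start rose by 2.24 ± 0.42 (adjusted p = 0.00249). A narrow peak past the end of the gene (chr14:33964943-33965327) held 0 reads in both P4 libraries and 3.59 to 6.55 RPKM at P28, at least 1.21-fold higher against a floor of 3 reads per library. The distal peak 3.4 kb away kept its call in each of 16 alternatives. With libraries scaled to reads in peaks or quantile normalized, the peak over the start lost its call (change 0.51 and 0.44, adjusted p = 0.0669 and 0.134), as did the one 1.0 kb before it (0.84 and 0.62, 0.0474 and 0.0993). With libraries left out, the peak over the start lost the call without P4 replicate 1 (adjusted p = 0.0128), the one 1.0 kb before it without either P4 library (0.0404 and 0.0550) or P28 replicates 2 and 3 (0.0161 and 0.0165), and the one past the end without either P4 library (0.0136 and 0.0134) or P28 replicate 2 (0.0111).

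Rdh12, a retinol dehydrogenase of photoreceptor inner segments that clears free retinal, was lowest at P4 and highest at P28. The gene lies at chr12:79208913-79222664. Its 4 pooled peaks had 0.288 and 0.379 RPKM at P4, 1.15 and 1.501 at P10, and 4.24, 6.63 and 7.07 at P28, so the ages did not overlap. The P4 values rest on 2 reads in each library, and the P10 values on 2 and 6 reads. By summed reads the P28 level was 19.5 times that at P4, with a 95% exact interval of 7.56 to 71.8 that covers counting error only. The log2 change from P4 to P28 was 2.36 ± 0.28 (adjusted p = 0.000235), larger than in 94.7% of genes. From P4 to P10 it was 0.80 ± 0.31 (adjusted p = 0.0719) and from P10 to P28 1.57 ± 0.28 (adjusted p = 0.00925). With so few reads before P28, the peaks of Rdh12 most likely entered the peak list through P28, the age where they are high. The p-values against P28 and the rank are therefore no independent support for a rise. By summed reads P10 was 4.25 times P4 (interval 1.14 to 19.3), and P28 was 4.58 times P10 (2.31 to 10.7). Whether these steps differed in size was not tested.

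Rdh12 was the only 1 of the 8 genes called between P10 and P28, a comparison in which 4.99% of all genes were called. That call was lost in 12 of 16 alternatives, among them leaving out any 1 library other than P10 replicate 2, and its adjusted p ranged from 0.00315 to 0.0583. Of its 4 peaks 3 were higher at P28 than at P4. Both promoter peaks had 0 reads in both P4 libraries. The first (chr12:79208681-79209837) reached 4.08, 4.94 and 6.57 RPKM at P28, at least 3.81-fold above the floor, and the second (chr12:79210148-79210867) 4.01, 7.34 and 8.40, at least 3.01-fold above it. The first lost its call without any 1 of the P4 and P28 libraries (adjusted p = 0.0156 to 0.0474) and in 8 of 16 alternatives in all, and the second without any 1 of them but P28 replicate 1 (0.0125 to 0.0180).

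The third Rdh12 peak lies in an intron 7.0 kb after the start (chr12:79215926-79216701). It had 0.586 and 0 RPKM at P4, 2.33 and 1.02 at P10, and 6.42, 10.7 and 8.68 at P28. By summed reads P28 was 28.9 times P4, with an interval of 5.13 to 1148. The log2 change was 2.91 ± 0.44 (adjusted p = 0.000896), and the call was lost without P4 replicate 2 (0.0155) or P28 replicate 2 (0.0105). Its centre holds the letters TAATCC, the core bound by the photoreceptor homeodomain factors CRX and OTX2, on each strand once. The stretch is shown because its fitted change is the largest of the gene's peaks, plus strand, chr12:79216253-79216372, with the matches in capitals:
Rdh12 intron peak: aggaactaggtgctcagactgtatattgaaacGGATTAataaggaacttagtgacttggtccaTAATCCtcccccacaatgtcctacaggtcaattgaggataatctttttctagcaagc

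Rdh8, the retinol dehydrogenase of outer segments that reduces retinal released from the visual pigment, stood highest at P10. The gene lies at chr9:20818494-20828058. Its 3 pooled peaks had 3.90 and 5.85 RPKM at P4, 35.4 and 39.9 at P10, and 18.7, 22.8 and 24.0 at P28. Every P10 library lay above every P28 library, and every P28 library above P4. The rise from P4 to P10 was 2.74 ± 0.28 on the log2 scale (adjusted p = 0.000468), larger than in 99.3% of genes, and that from P4 to P28 was 1.97 ± 0.25 (adjusted p = 0.000303). The call from P4 to P28 was lost in 2 of 16 alternatives, with a change as low as 0.35 and an adjusted p up to 0.137. From P10 to P28 the change was -0.76 ± 0.25 and did not pass (adjusted p = 0.0570), although it did pass as a fall with libraries centred on their median (-1.16, adjusted p = 0.00487, in a range of 0.00487 to 0.186 over its alternatives). The peak over the start (chr9:20817909-20819248) carried 3.05 and 3.12 RPKM at P4, 31.0 and 43.5 at P10, and 22.9, 25.8 and 27.3 at P28. Its change from P4 to P28 was 2.69 ± 0.26 (adjusted p = 0.000152). The intron peak after it rose by 1.64 ± 0.36 (adjusted p = 0.00600), a call kept in only 7 of 16 alternatives. Among the losses were those without P4 replicate 1 (adjusted p = 0.0660) or any 1 P28 library (0.0148 to 0.0332). The change of this intron peak was 0.22 with libraries scaled to reads in peaks (adjusted p = 0.612) and turned to -0.10 under quantile normalization (0.848). The third peak, past the gene's end, was not called.

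Abca4 encodes the transporter of outer segment disc rims that moves retinal adducts out of the disc. The gene spans chr3:122043891-122180070 and held 24 peaks. Pooled, they had 1.31 and 1.45 RPKM at P4, 3.87 and 4.45 at P10, and 5.04, 6.28 and 6.91 at P28. The ages did not overlap. The log2 change was 1.12 ± 0.24 (adjusted p = 0.00607) from P4 to P10, 0.45 ± 0.22 (adjusted p = 0.162) from P10 to P28, and 1.56 ± 0.22 (adjusted p = 0.000452) from P4 to P28.

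The gain in Abca4 was uneven along the gene. The peak over the start (chr3:122042442-122045122) went from 2.03 and 1.78 RPKM at P4 to 10.1 and 12.9 at P10 and 13.4, 19.03 and 22.0 at P28, a change of 2.69 ± 0.31 (adjusted p = 0.000264). An exon peak 8.8 kb into the gene (chr3:122053275-122054407) went from 1.60 and 1.58 RPKM at P4 to 14.1, 15.6 and 17.4 at P28, a change of 2.68 ± 0.28 (adjusted p = 0.000203). Both kept their call with any 1 library left out. Of the other peaks 4 were called higher and 18 were not called, and each of those 4 lost its call without 1 or the other P4 library (adjusted p = 0.01005 to 0.0771). Over all 16 alternatives the intron peak 3.5 kb after the start lost it in 12, with a change as low as 0.35 (adjusted p = 0.447), the exon peak 51.7 kb after it in 10 (up to 0.0472), and the other two in 3 and 4 (up to 0.0110 and 0.0322). The first 19 peaks had 1.35 ± 0.0749 RPKM (SD, n = 2) at P4 and 6.73 ± 1.12 (SD, n = 3) at P28. The last 5 had 1.57 ± 0.300 at P4 and 1.70 ± 0.139 at P28. That split was placed after the values were seen, and the difference between its parts was not tested.

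**Figure D3:**
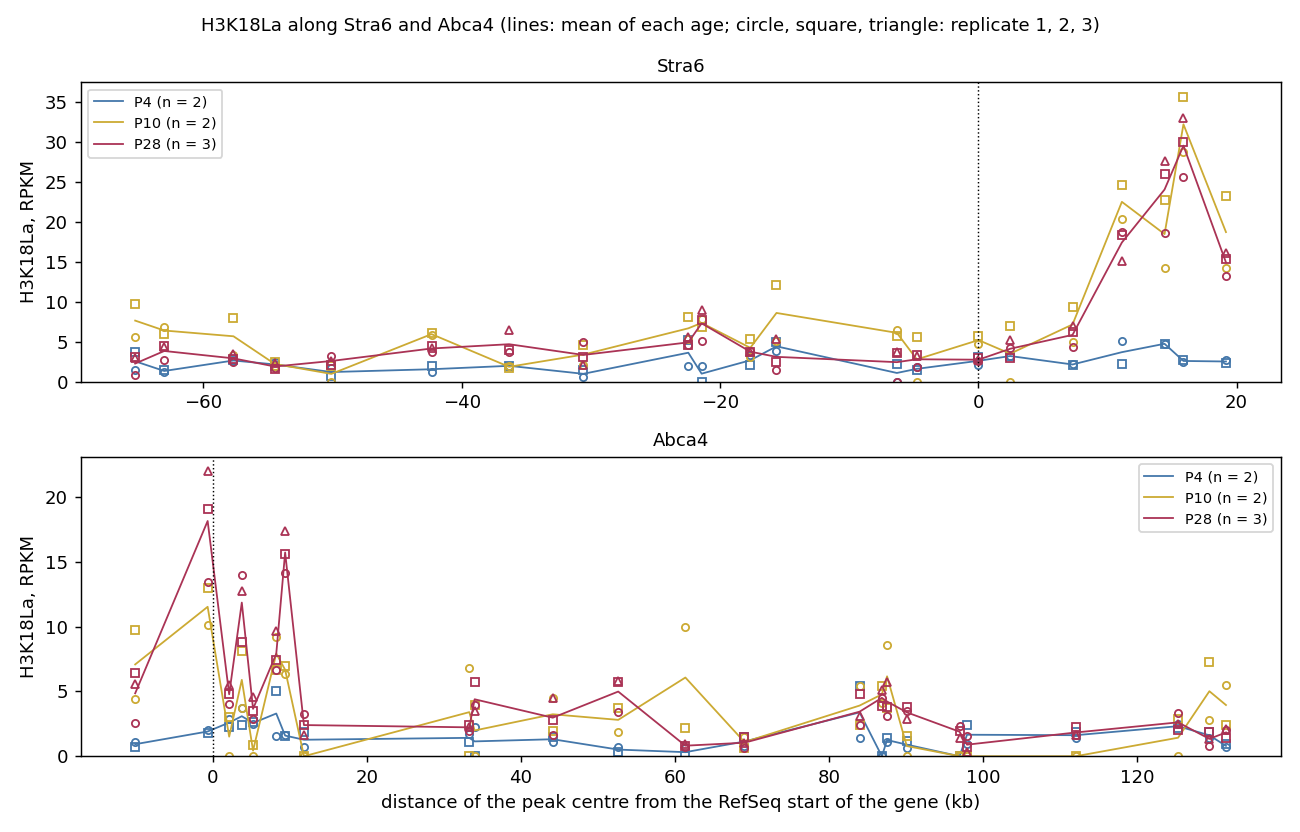
H3K18La of each peak (RPKM, vertical axis) by the distance of its centre from the RefSeq start of Stra6 and Abca4 (kb, horizontal axis), with 1 symbol per library and lines joining the mean of each age. In Stra6 the P10 and P28 libraries stand above P4 in the last 4 peaks, 11.1 to 19.2 kb after the start, while at the start all libraries lie between 2.08 and 5.67 RPKM. In Abca4 the highest P28 values are at the start and in the first 10 kb.

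Dhrs3, a reductase that turns retinal back into retinol and so limits retinoic acid, was higher too. It lies at chr4:144892534-144928209. Its 11 pooled peaks had 2.01 and 1.98 RPKM at P4, 5.98 and 7.39 at P10, and 8.13, 10.8 and 12.6 at P28. The ages did not overlap, and the change from P4 to P28 was 1.92 ± 0.23 (adjusted p = 0.000223). The 5 peaks called higher run from the promoter to an intron 14.8 kb after the start. The largest change was in a short intron peak (chr4:144896125-144896634), which had 2.67 and 3.51 RPKM at P4, 14.2 and 23.2 at P10, and 25.7, 27.1 and 39.3 at P28. Its change was 2.94 ± 0.31 (adjusted p = 0.000207). The promoter peak (chr4:144890500-144892800) changed by 2.75 ± 0.34 (adjusted p = 0.000356). Both kept their call with any 1 library left out, as did the peak in the 5′ UTR, which lost it with libraries scaled to reads in peaks (change 1.11, adjusted p = 0.0411) or quantile normalized (1.25, 0.0327). The remaining 2 intron peaks lost it without any 1 P4 or P28 library (adjusted p = 0.0178 to 0.0961), and over all alternatives they lost it in 8 and 11 of 16 (up to 0.137 and 0.0701).

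Of the pigment epithelium genes, Lrat had no peak and Rpe65 only a distal one with 3 reads in all. Lrat, which esterifies retinol for storage and isomerisation, lies at chr3:82892582-82903974, and its level was not measured. The nearest peak of any gene was 42.3 kb away. Rpe65, the isomerase that restores the bent form of the chromophore, lies at chr3:159599075-159625307. Its only peak was 316 bases wide and 22.0 kb before the gene (chr3:159576806-159577121). It held 1 read in each P4 library, 0 in each P10 library, and 0, 1 and 0 at P28. The gene-level fit called it lower at P28 (log2 change -1.32 ± 0.19, adjusted p = 0.000490), but every library was at or under the floor of 3 reads, so no fold is given. No peak of any gene lay within 10 kb of Rpe65 or of Lrat.

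Rdh5, the cis-retinol dehydrogenase that completes the chromophore in the pigment epithelium, lies at chr10:128913588-128920037. Its 2 pooled peaks had 1.343 and 1.76 RPKM at P4, 3.56 and 2.33 at P10, and 1.55, 1.63 and 2.21 at P28. P4 and P28 overlapped. P10 stood above both, but on only 2 and 3 reads against 3 and 3 at P4, all at or under the floor. The change from P4 to P10 was not called by limma (adjusted p = 0.149). The change from P4 to P28 was 0.13 ± 0.28 (adjusted p = 0.702), and it turned to -0.95, -0.47 and -0.48 when libraries were scaled to reads in peaks, centred on their median or quantile normalized. Each library held 2 to 27 of its reads. One of its peaks, at the promoter (chr10:128917594-128918122), also overlaps Bloc1s1, and neither peak was called.

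Stra6, the membrane receptor that takes up retinol from its plasma carrier, spans chr9:58063793-58154004 in the annotation, had 21 peaks and rose. Pooled, they had 2.34 and 2.37 RPKM at P4, 7.67 and 11.3 at P10, and 6.95, 8.08 and 8.68 at P28. Every later library lay above P4. The change was 1.62 ± 0.24 (adjusted p = 0.00130) from P4 to P10 and 1.40 ± 0.22 (adjusted p = 0.000830) from P4 to P28. The second call was lost in 4 of 17 alternatives, among them leaving out P4 replicate 1 (adjusted p = 0.0120) or P4 replicate 2 (0.0118). Over all 17 the change went as low as 0.16 and the adjusted p up to 0.256. That span runs across the neighbouring gene Ccdc33, and 12 of the 21 peaks overlap Ccdc33. Without those 12, an alternative added after the data were seen, Stra6 had 2.601 and 2.49 RPKM at P4 and 11.2, 13.3 and 14.0 at P28, and its change was 1.96.

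The Stra6 calls, apart from 1, lay in the last 4 peaks. The peak over the coding gene's start (chr9:58128343-58129871) had 2.08 and 3.12 RPKM at P4, 4.72 and 5.67 at P10, and 2.57, 2.93 and 2.71 at P28. P4 and P28 overlapped, and the change of 0.07 ± 0.36 was not called (adjusted p = 0.887). The last 4 peaks, between chr9:58139812 and chr9:58149286, were all called higher, although 3 of them lost the call without 1 or both of the P4 libraries in turn (adjusted p = 0.0101 to 0.0150). The first of the 4 also lost it under scaling to reads in peaks (change 0.72, adjusted p = 0.134) and quantile normalization (0.76, 0.169), the second under the same settings (0.73, 0.0140, and 0.58, 0.0465), and the last under scaling to reads in peaks (0.91, 0.0103). Pooled, these 4 had 3.13 and 2.63 RPKM at P4, 20.8 and 28.2 at P10, and 19.2, 22.3 and 23.3 at P28. The 5 peaks around the coding start, none of them called, had 2.20 ± 0.206 RPKM (SD, n = 2) at P4, 5.01 ± 2.56 (SD, n = 2) at P10 and 3.77 ± 0.744 (SD, n = 3) at P28. Of the 12 peaks over Ccdc33 only 1 was called higher, a call lost without P4 replicate 2 (adjusted p = 0.0403) or any 1 P28 library (0.0149 to 0.0289) and in 10 of 16 alternatives in all (up to 0.103), and their pooled level went from 2.19 ± 0.111 RPKM (SD, n = 2) at P4 to 3.62 ± 0.414 (SD, n = 3) at P28. The division into these stretches followed the values, and no test was made between them.

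The strongest of the Stra6 peaks, at chr9:58143975-58145982, covers an exon and its introns. It had 2.49 and 2.67 RPKM at P4, 28.8 and 35.7 at P10, and 25.6, 30.1 and 33.0 at P28. That is an 11.5-fold rise in the mean to P28, with a log2 change of 3.09 ± 0.25 (adjusted p = 0.000113), and it was called in each alternative run. Its centre holds no TAATCC. It does hold TGCTGA, the half-site of the rod factor NRL, overlapping TGACCT, the reverse complement of AGGTCA, the half-site of nuclear receptors. The stretch is shown on the plus strand, chr9:58144828-58144947, with the joined matches in capitals:
Stra6 exon and intron peak: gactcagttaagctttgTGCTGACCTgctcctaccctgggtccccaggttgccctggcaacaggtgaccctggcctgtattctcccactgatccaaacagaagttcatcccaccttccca

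Set side by side, the mean of the photoreceptor genes stood above that of the pigment epithelium genes at P10 and P28, by a margin that depended on Rpe65. Gene by gene it did not hold, since Stra6 was above Abca4 and Rdh12 in each P10 and P28 library. The mean of log2(pooled RPKM + 1) over the 4 photoreceptor genes was 1.49 and 1.72 in the P4 libraries, 3.13 and 3.42 at P10, and 3.34, 3.69 and 3.80 at P28. Over the 3 pigment epithelium genes with a peak it was 1.42 and 1.58 at P4, 1.77 and 1.79 at P10, and 1.45, 1.61 and 1.65 at P28. The difference between the groups was 0.07 and 0.13 at P4, 1.36 and 1.63 at P10, and 1.90, 2.08 and 2.14 at P28, so the ages did not overlap. From P4 to P28 the photoreceptor genes moved by 2.01 and the pigment epithelium genes by 0.07, a difference of 1.94. This is a description without a test, because the groups were chosen with results known. Much of it rests on the 3 reads of Rpe65, which had none at P10. The 0.07 is the average of 1.40 for Stra6, 0.13 for Rdh5 and -1.32 for Rpe65. Without that gene, a setting added after the data were seen, the groups differed by 0.0036 and 0.11 at P4, 0.48 and 0.74 at P10, and 1.17, 1.40 and 1.318 at P28. The ages still did not overlap, and the difference in change from P4 to P28 was 1.24. Without Stra6 it was 2.602, and over its alternatives it ranged from 1.15 to 3.16. The mean of Rdh5 and Stra6 alone was 1.48 and 1.61 at P4, 2.65 and 2.68 at P10, and 2.17 to 2.48 at P28. Without Rpe65 the pigment epithelium mean was thus not flat, and every P28 library lay above every P4 library.

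**Figure D4:**
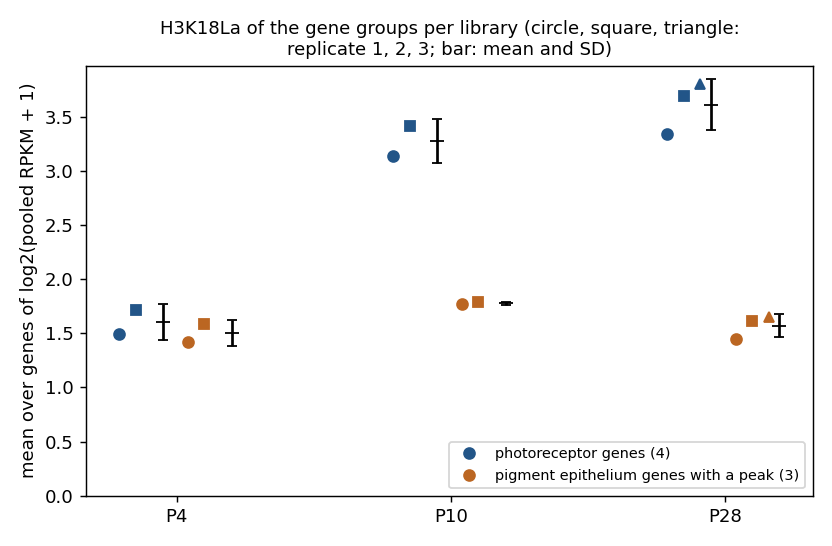
Mean over genes of log2(pooled RPKM + 1) (vertical axis, from 0) at P4, P10 and P28 (horizontal axis) for the 4 photoreceptor genes and the 3 pigment epithelium genes with a peak, with 1 symbol per library and the mean ± SD of each age. The groups lie within 0.13 of each other at P4 and stand 1.36 to 2.14 apart at P10 and P28, and without Rpe65 they would stand 0.48 and 0.74 apart at P10 and 1.17 to 1.40 at P28.

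The comparison of P10 with P4 gave fewer calls. Of the 8 genes 5 were called higher at P10 than at P4, against 16.5% of all genes, and Rpe65 was called lower on its few reads, against 8.01%. Of the 71 peaks 17 were higher, against 11.4% of all peaks, and 1 was lower, against 7.34%. With libraries scaled to reads in peaks 7 were higher and 5 lower, beside 4.31% and 15.6% of all peaks, and the members' median change went from 0.80 to 0.10. Without P10 replicate 2, 18 were higher and 5 lower, beside 11.1% and 5.48% of all peaks. Without P4 replicate 1 or P4 replicate 2 only 2 of the 8 genes and 6 of the 71 peaks were called, beside 8.45% and 8.70% of all genes and 5.06% and 5.05% of all peaks. Between P10 and P28 limma called none of the 71 peaks, and 0.00185% of all peaks. An unadjusted p under 0.05 was found in 23 of the 71 (32.4%) and in 32.5% of all peaks. The voom fit on recovered reads called 2 of the 71 and 8.26% of all peaks. Without P10 replicate 2 the count was 12 (16.9%), near the 15.2% of all peaks. The P10 libraries had the largest shares of peaks at 0 reads, 45.8% and 22.1%.

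Sequences at the starts of the genes were searched for 4 motifs, and the stretches shown are those that hold TAATCC. Promoter windows of 250 bases before to 50 after each RefSeq start (GRCm38.p6) were searched on both strands, and all 9 genes matched, with 14 windows. TAATCC was found in the windows of Rbp3, Abca4 and Rpe65, in 3 of 14, and in 7.06% of the 32851 windows of all genes, which is a description of few windows and was not tested. All 3 matches read GGATTA on the plus strand, which is the coding strand of each gene, and begin at -69, -58 and -42 from the start in Rbp3, Abca4 and Rpe65. The Rpe65 stretch lies in an exon of a longer RefSeq transcript. The matches are in capitals, from chr14:33953922-33953951, chr3:122044390-122044419 and chr3:159599127-159599156:
Rbp3: ttgaattagacaGGATTAaaggcttagcag
Abca4: gtaattagagggGGATTAtgcttgaagggg
Rpe65: ctcctccaataaGGATTAgattgcatacaa

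The match is therefore present both in genes that gained the mark and in Rpe65, which had no peak there. TGCTGA was in 4 of 14 windows against 19.5% of all, GGGCGG, the core of SP and KLF factor sites, in 5 of 14 against 35.7%, and AGGTCA in 0 of 14 against 16.3%. In the central 300 bases of the peaks, TAATCC was in 8 of 71 against 11.5% of all peaks, and by group in 6 of 36 photoreceptor gene peaks and 1 of 24 pigment epithelium gene peaks. TGCTGA was in 25 of the 71 against 24.8%, AGGTCA in 19 against 21.1%, and GGGCGG in 11 against 11.8%. These are matches of letters and not binding sites.

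Of 31 further genes of retinoid metabolism and retinoic acid signalling, 28 had a peak. From P4 to P28, 12 were called higher, 1 lower and 15 were not called, and their median change was 0.99, beside 33.7%, 7.07% and 0.76 for all genes. From P4 to P10, 4 were higher and 1 lower, beside 16.5% and 8.01% of all genes. Among nuclear receptors, Rara (retinoic acid receptor alpha) had 1.60 and 1.46 RPKM at P4, 5.58 and 8.28 at P10, and 9.79, 12.5 and 13.9 at P28, a change of 2.35 ± 0.23 (adjusted p = 0.000118). Its partner Rxra changed by 1.81 ± 0.25 (adjusted p = 0.000406). The carotenoid-cleaving Bco2 rose by 2.24 ± 0.52 (adjusted p = 0.00603). It had 1 read in each P4 library, and the summed-read ratio was 20.1 with an interval of 5.50 to 167. Rrh, the opsin peropsin of the pigment epithelium, went from 2.08 and 1.36 RPKM at P4 to 13.4 and 9.45 at P10 and 8.09, 8.71 and 12.1 at P28, a change of 1.96 ± 0.25 (adjusted p = 0.000326). Rrh thus rose, unlike Rdh5, although the difference between them was not tested.

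Cyp26a1, which degrades retinoic acid, rose by 1.70 ± 0.35 (adjusted p = 0.00347), the retinol dehydrogenase Rdh11 by 1.55 ± 0.34 (adjusted p = 0.00462, summed-read ratio 7.19 with an interval of 2.41 to 35.3) and the desaturase Degs1 by 1.51 ± 0.28 (adjusted p = 0.00186). Aldh1a1, which makes retinoic acid, was called lower, but its single peak had 3 reads or fewer in every library. Rgr, a retinal-isomerising opsin of pigment epithelium and Mueller glia, had 3.88 and 2.55 RPKM at P4 and 6.12, 8.35 and 9.14 at P28, a change of 1.08 ± 0.28 (adjusted p = 0.00954). Rdh10 had a change of 1.07 ± 0.30 (adjusted p = 0.0130) and Rlbp1, the retinal-binding protein of the same 2 cell types, 0.25 ± 0.65 (adjusted p = 0.758), and neither was called.

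The genes whose level over the 7 libraries was most like that of Rbp3 were Pcbp3, Mrps27, Serinc5, Dpf3 and Crb2, each with a Pearson r of 0.999 over log2(pooled RPKM + 1). Such likeness was common, as 3260 of the 9186 protein-coding genes compared (those at or above the median level) had an r above 0.9. The points share libraries, depth and signal share. Among the other members r with Rbp3 was 0.98 for Stra6, 0.96 for Abca4 and for Dhrs3, 0.94 for Rdh8, 0.80 for Rdh12, 0.44 for Rdh5 and -0.95 for Rpe65. Rpe65 held at most 1 read in any library, so its r describes single reads and not an opposite course. Reads at P4 were also few for Rdh12 (2 in each library) and Rdh5 (3 in each).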

How the data were processed

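H3K18La CUT&Tag of 7 retina libraries was analysed. The deposited table gives RPKM per peak, and the authors made it from reads aligned to GRCm38, with MACS peaks found in at least 2 libraries of an age merged over ages and library sizes normalized on large genomic windows. Such a union can hold more peaks of the deeper and more numerous P28 libraries. Peaks with 0 reads in both P4 libraries, as in Rdh12, Rbp3 and Abca4, entered it through a later age. Their tests against P4 are not independent of that choice. The submitters' processing notes name ChIPseeker 1.34.1 and edgeR 3.40.2. A second deposited table of the authors' own comparisons (fold changes and p-values) was not used. RPKM times width came out as whole reads in 100% of values (tolerance 0.02), which gave reads and library sizes.

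Gene levels pool the reads of all peaks of a symbol. log2(RPKM + 1) was fitted over all peaks or genes and all 7 libraries with limma 3.58.1 in R 4.3.3, with trend on. P-values were Benjamini-Hochberg adjusted, and calls were made under 0.01. A trial on simulated data planted changes only in well-read features and without the shift in signal share. It therefore says nothing of peaks with few reads. A 2-sided exact rank test of 3 against 2 libraries cannot go below 0.2. The members, gene groups and lists were chosen with earlier results of these data known. Genes named beyond the members are the 8 most changed called genes of the wider list, plus Rlbp1, Rgr and Rdh10, and the 5 most like Rbp3. Alternatives were pseudocounts, a read filter, scalings, voom, a block, a batch term and leaving out libraries. Sequences are from RefSeq, GRCm38.p6.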

Additional observations from a re-analysis of the deposited data

How the results depend on the processing

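The count of member peaks called between P28 and P4 was 26 (all peaks 23.1%) and went to 15 with libraries scaled to reads in peaks (21.6%) and to 11 to 29 with 1 library left out (7.18% to 39.2%). Between P10 and P4 the 18 called peaks (all peaks 18.7%) went to 6 under quantile normalization (6.73%) and to 6 to 23 with 1 library left out (5.05% to 19.4%). Between P28 and P10 no peak was called, 1 with a pseudocount of 0.1 (1.23%), 1 with a pseudocount of 4 (2.598%), 2 with voom (8.26%), and 0 to 12 with 1 library left out (0 to 15.2%). Of the member genes, 7 were called between P28 and P4 (all genes 40.7%), 4 with libraries scaled to reads in peaks (36.1%) and 6 to 7 with 1 library left out (19.6% to 57.1%). Between P10 and P4 the 6 called genes (24.5%) went to 3 under quantile normalization (19.7%) and to 2 to 6 with 1 library left out (8.45% to 27.9%). Between P28 and P10 the 1 call (Rdh12) became 0 with a pseudocount of 0.1, scaling to reads in peaks, quantile normalization, the replicate block and the batch term, was replaced by a fall of Rdh8 under median centring, and 0 to 1 with 1 library left out, while the share of all genes called was 4.99% and at most 22.4%. The batch term and leaving out P28 replicate 1, which is the fit within batch 1, kept 7 gene calls from P4 to P28 (30.0% and 30.1% of all genes). The replicate numbers are shared across ages, but deviations of same-numbered libraries correlated at most at 0.0469, so the numbers were not taken as pairs. With the replicate block 21 peaks and 7 genes were called between P28 and P4 (14.1% of all peaks and 24.2% of all genes).

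Of the 71 peaks, 61 had a change from P4 to P28 above 0 (all peaks 66.5%), but 33 with libraries scaled to reads in peaks (43.0%), 44 under quantile normalization (52.2%) and 49 under median centring (54.3%). Among the 8 genes and the 27 peaks followed singly, signs turned in 3. Rdh5 went from 0.13 to -0.95 (scaled to reads in peaks), -0.47 (median centring) and -0.48 (quantile normalization). The Stra6 peak over the start went from 0.07 to -1.15, -0.45 and -0.74 in the same order, and from -0.14 (without P4 replicate 1) to 0.28 with 1 library left out. The second Rdh8 peak went to -0.10 under quantile normalization. The difference in change between photoreceptor and pigment epithelium genes, 1.94, was 3.16 with a pseudocount of 0.1, 1.15 with 4, 2.62 over promoter peaks, 1.79 as a median over genes, 1.24 over genes with at least 20 reads, 1.75 without the Stra6 peaks over Ccdc33, 2.602 without Stra6, and 1.88 to 2.01 with 1 library left out. Both Stra6 settings were chosen after seeing the data. Except where a setting tests fewer genes or libraries, the cause was not tested. Depth limits Rdh12, Rdh5 and Rpe65, with at most 3 reads in each P4 library.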
